A study of Danio rerio with 2 samples.

Results

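The genes described here encode proteins of the otolith and of the extracellular membranes that lie over hair cells (HCs) of the ear and lateral line. They are *stm* (ENSDARG00000035694), *otomp* (ENSDARG00000040306), *oc90* (ENSDARG00000001721), *otog* (ENSDARG00000068460), *otogl* (ENSDARG00000088750), *tecta* (ENSDARG00000059558), *tectb* (ENSDARG00000045268) and *zpld1a* (ENSDARG00000061835). They were chosen by symbol and function, and these 8 symbols each named 1 of the 32059 features of both libraries. Zebrafish larvae of the *Tg(Brn3c:mGFP)* line, in which the *Brn3c* promoter drives membrane GFP in cells that include HCs, were dissociated at 4 days post-fertilization (dpf). The mGFP+ cells were sorted, and 1 10x Genomics 3′ library was made from *hsd17b7* mutant larvae and 1 from control larvae, which the labels call wild-type. The label gives the mutant only as a knockout of *hsd17b7*, a gene of cholesterol synthesis, and the line the study selected has a CRISPR/Cas9 deletion of 4 bp in exon 3. Both libraries share the reporter, the age and the sort, and how many larvae were pooled is not given in the sources used here.

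Sensory HCs of the fish ear are capped by extracellular structures that supporting cells (SCs) and other cells of the epithelium secrete. Over the maculae lies an otolith, a calcium carbonate crystal on a protein scaffold, held in place by an otolithic membrane, whereas a gelatinous cupula covers the cristae of the semicircular canals and the neuromasts of the lateral line. In the mammalian cochlea the corresponding structure is the tectorial membrane. Starmaker (*stm*) and otolith matrix protein (*otomp*) are otolith proteins of zebrafish, and otoconin 90 (*oc90*) is the main soluble protein of otoconia in mice. The tectorins (*tecta*, *tectb*) and the otogelins (*otog*, *otogl*) are glycoproteins of the mammalian acellular membranes, and *tecta* and *otog* are needed for otolith tethering in zebrafish. Zpld1, a zona pellucida domain protein like the tectorins, is known from the cupula of mice and toadfish.

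Levels are given as unique molecular identifiers (UMIs) scaled to a common library size, in counts per 1e+06 UMIs (CPM). Barcodes were kept where 500 genes or more were detected and mitochondrial transcripts took 20% or less of the UMIs. This left 8322 of 10119 barcodes in the library labelled mutant and 17385 of 19270 in the library labelled control. The deposited totals were 81920586 UMIs (median 5521 per barcode) and 180590990 UMIs (median 7005). The targeted gene *hsd17b7* stood at 296 CPM in the mutant and 178 CPM in the control inner ear HCs (IEHCs), and at 168 and 131 CPM in lateral line HCs (LLHCs), so its level does not check the labels. SCs were barcodes with *stm* at 1000 CPM or more. They were called inner ear (IE) SCs where *irg1l* was below 200 CPM and lateral line (LL) SCs where it was at 300 or more. HCs had at least 3 *myo6b* UMIs and were IEHCs where *lhfpl5a* exceeded *lhfpl5b* and LLHCs where it was the lower. The library labelled mutant gave 71 IE SCs, 218 LL SCs, 724 IEHCs, 60 LLHCs and 6845 barcodes that passed neither gate, and the library labelled control 452, 194, 766, 77 and 15312. These other barcodes serve as the background. Under the *myo6b* limit, 92 mutant and 298 control barcodes held 2 or more of the 7 genes other than *stm*. Of these, 56 and 184 reached the *stm* limit, and the rest lie in the background. A further 67 mutant and 140 control barcodes passed both the *stm* and the *myo6b* condition and are described on their own. The *myo6b* barcodes with equal *lhfpl5a* and *lhfpl5b*, 334 mutant and 431 control, are neither in a gate nor in the background. The same holds for 3 mutant and 13 control *stm* barcodes with *irg1l* between the limits. Each level is the CPM of the UMIs summed over a gate, with 95% counting intervals (exact Poisson for levels, conditional binomial for ratios, exact binomial for shares). The intervals cover counting error only, and with 1 library per genotype no difference between genotypes could be tested. UMIs were not divided by transcript length, so levels are compared between gates and libraries and not between genes.

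The gates were checked against markers. All 12 HC markers, among them *myo6b*, which is part of the gate, were at 20 CPM or more in the IEHCs of both libraries. In LLHCs 11 were, and *strc* stood at 3.52 CPM (mutant) and 12.5 CPM (control). Some HC markers also reached 20 CPM elsewhere, 5 in mutant and 4 in control IE SCs, and 5 and 3 in the other barcodes. In the LL SCs of both libraries 3 of 7 lateral line SC markers reached that level (*irg1l*, which is part of the gate, *lfng* and *krt15*). In mutant IE SCs 3 of the 7 also did (*lfng*, *gata2a* and *krt15*), and in control IE SCs 1 did (*lfng*). *lfng* stood at 623 CPM in mutant IE SCs against 479 in mutant LL SCs, and at 100 against 230 in the control ones. *krt15* was lower in IE SCs in both libraries, at 26.3 against 101 CPM (mutant) and 5.91 against 55.5 CPM (control). The IE SC gate did not hold 1 kind of cell in the library labelled control. There, 0 of 71 mutant but 143 of 452 control barcodes (31.6%) carried markers of the retinal pigment epithelium (RPE), with a median of 18260 CPM over *rpe65a*, *rlbp1b*, *rgrb*, *rgra*, *rdh5* and *stra6*. This marker list was chosen after the gate had been seen. In the control RPE marker barcodes *stm* stood at 4014 CPM, against 247 CPM in the 228 control RPE marker barcodes outside both gates. RPE marker barcodes were those with 2000 CPM or more over this list. Hepatocyte marker barcodes, with 20000 CPM or more over 6 genes, were 1 mutant and 2 control barcodes. The median of the hepatocyte markers over all IE SC barcodes was 288 CPM (mutant) and 134 CPM (control). Barcodes described as without these markers can thus hold some of their UMIs. Globin UMIs summed to between 0 and 5.74 CPM in the 4 mutant gates and to at least 14830 CPM in each of the 4 control gates, and their part in the differences between the libraries was not tested. Neural progenitor markers, a list of 6 genes, summed to 3737 CPM in mutant IE SCs (median 1222 per barcode) and to 713 CPM in control IE SCs (median 118), and 8 neuron markers to 618 and 139 CPM. Hepatocyte markers summed to 9539 and 1217 CPM. The part of these markers in the differences between the libraries was not tested, and barcodes with neural markers were kept in the gate. The detection counts, the comparisons and the joint ratios of IE SCs are also given for the 70 mutant and 307 control barcodes without RPE or hepatocyte markers.

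**Figure D1:**
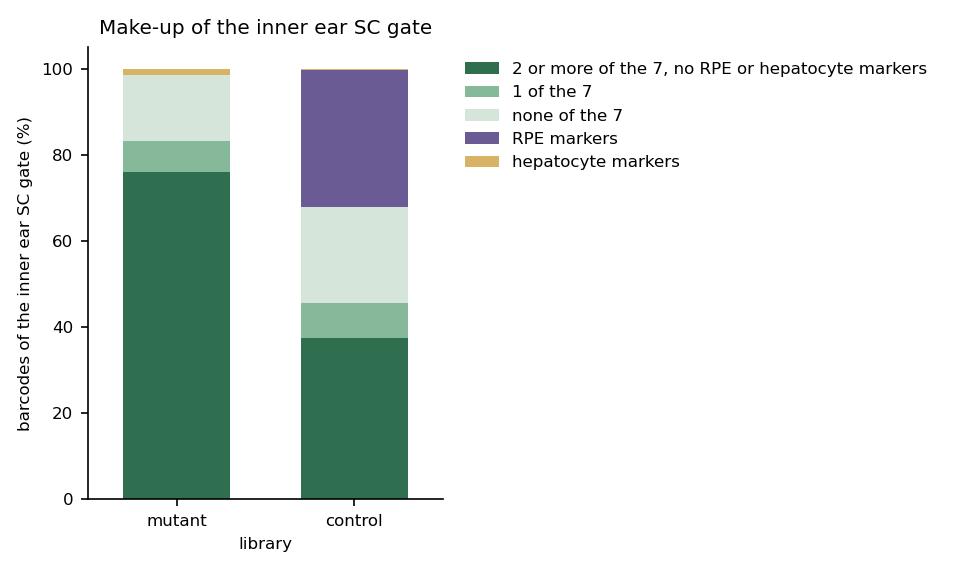
Make-up of the IE SC gate in each library, as a share of its barcodes (y axis, %). The greens split barcodes without RPE or hepatocyte markers by how many of the 7 genes other than *stm* had a UMI. Those with 2 or more made up 76.1% of the mutant and 37.4% of the control gate, or 77.1% and 55.0% of the barcodes without these markers. The shares were not taken at equal depth. Purple marks RPE marker barcodes, 0% of the mutant and 31.6% of the control gate.

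Of the 7 genes other than *stm*, 2 or more were detected together in 54 of 71 IE SCs in the library labelled mutant (76.1%), against 174 of 452 in the library labelled control (38.5%). None of the 7 was detected in 12 mutant barcodes (16.9%) and 229 control barcodes (50.7%), of which 128 carried RPE markers. Without RPE and hepatocyte marker barcodes, 2 or more were detected in 54 of 70 mutant (77.1%) and 169 of 307 control barcodes (55.0%), and none in 11 (15.7%) and 101 (32.9%). These counts were not taken at equal depth. The barcodes with none had a median of 3749 (mutant) and 2858 UMIs (control), against 7130 and 13210 for those with 2 or more. In a shallow barcode 1 *stm* UMI was enough to pass the gate, as in a control barcode of 728 UMIs. In the LL SC gate the picture was the opposite. There, 188 of 218 mutant barcodes (86.2%) and 148 of 194 control barcodes (76.3%) held no UMI of the 7 genes although *stm* was high in all of them.

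*stm* chose both SC gates, so its level in them is a description. It stood at 13680 CPM in mutant IE SCs (median 9608 per barcode) and at 7789 CPM in control IE SCs (median 3934). In LL SCs it stood at 9426 CPM in the library labelled mutant (median 5707) and at 14130 CPM in the library labelled control (median 10280). The same gene in all 361 mutant and 349 control barcodes with high *irg1l* and without *myo6b*, with no condition on *stm*, stood at 6137 and 10130 CPM. Of these, 60.4% and 55.6% passed the *stm* threshold, and 68 mutant and 97 control barcodes held no *stm* UMI. The limit of 1000 CPM cut through a continuous range in the library labelled control. Barcodes with *irg1l* below 200 CPM and fewer than 3 *myo6b* UMIs were counted on both sides of it. Just outside it, at 500 to 1000 CPM, there were 24 mutant and 224 control barcodes, and just inside it, at 1000 to 2000, there were 7 and 121. At least 1 of the other 7 genes was detected in 33.3% and 15.6% of those outside and in 42.9% and 20.7% of those inside. In the library labelled control, 20.1% of those outside and 45.5% of those inside carried RPE markers, and in the library labelled mutant 0% of either did. Background *stm* was also higher in the library labelled control, with UMIs in 4.72% of the other mutant barcodes (10.8 CPM, median depth 5644 UMIs) and 16.8% of the other control barcodes (28.5 CPM, median depth 7090).

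*otomp*, whose product is built into the growing otolith, was an IE gene in both libraries. In IE SCs it stood at 202 CPM (115 UMIs) in the library labelled mutant and at 274 CPM (1622 UMIs) in the library labelled control, and in LL SCs at 0 and 1 UMI. The other barcodes held 0.155 and 0.698 CPM. *oc90* was low everywhere, at 12.3 CPM (7 UMIs) in mutant IE SCs and 7.43 CPM (44 UMIs) in control IE SCs. Of its UMIs, 166 of 204 in the library labelled mutant (81.4%) and 264 of 386 in the library labelled control (68.4%) lay in barcodes outside the gates. Those barcodes made up 82.3% and 88.1% of the kept barcodes.

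The otogelins and tectorins set the IE SC gate apart from the LL SC gate, from which they were nearly lacking. *otog* was not particular to IE SCs. IEHCs held 53.1% of its mutant and 36.8% of its control UMIs, against 10.4% and 23.5% in IE SCs. *otog* stood at 337 CPM in mutant and 142 CPM in control IE SCs, against 5.61 and 13.7 CPM in LL SCs. *otogl*, which the study used to mark IE SCs, stood at 279 and 118 CPM in IE SCs, against 6.90 and 2.73 CPM in LL SCs. *tecta*, which encodes alpha-tectorin, stood at 341 and 122 CPM in IE SCs, against 6.04 and 10.6 CPM in LL SCs. *tectb*, which encodes beta-tectorin, stood at 3542 and 701 CPM in IE SCs, against 64.3 and 3.13 CPM in LL SCs. All 4 genes thus lay at least 10-fold higher in IE than in LL SCs in each library. The cupula gene *zpld1a* stood at 515 and 127 CPM in IE SCs, against 1.29 and 69.1 CPM in LL SCs.

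**Figure D2:**
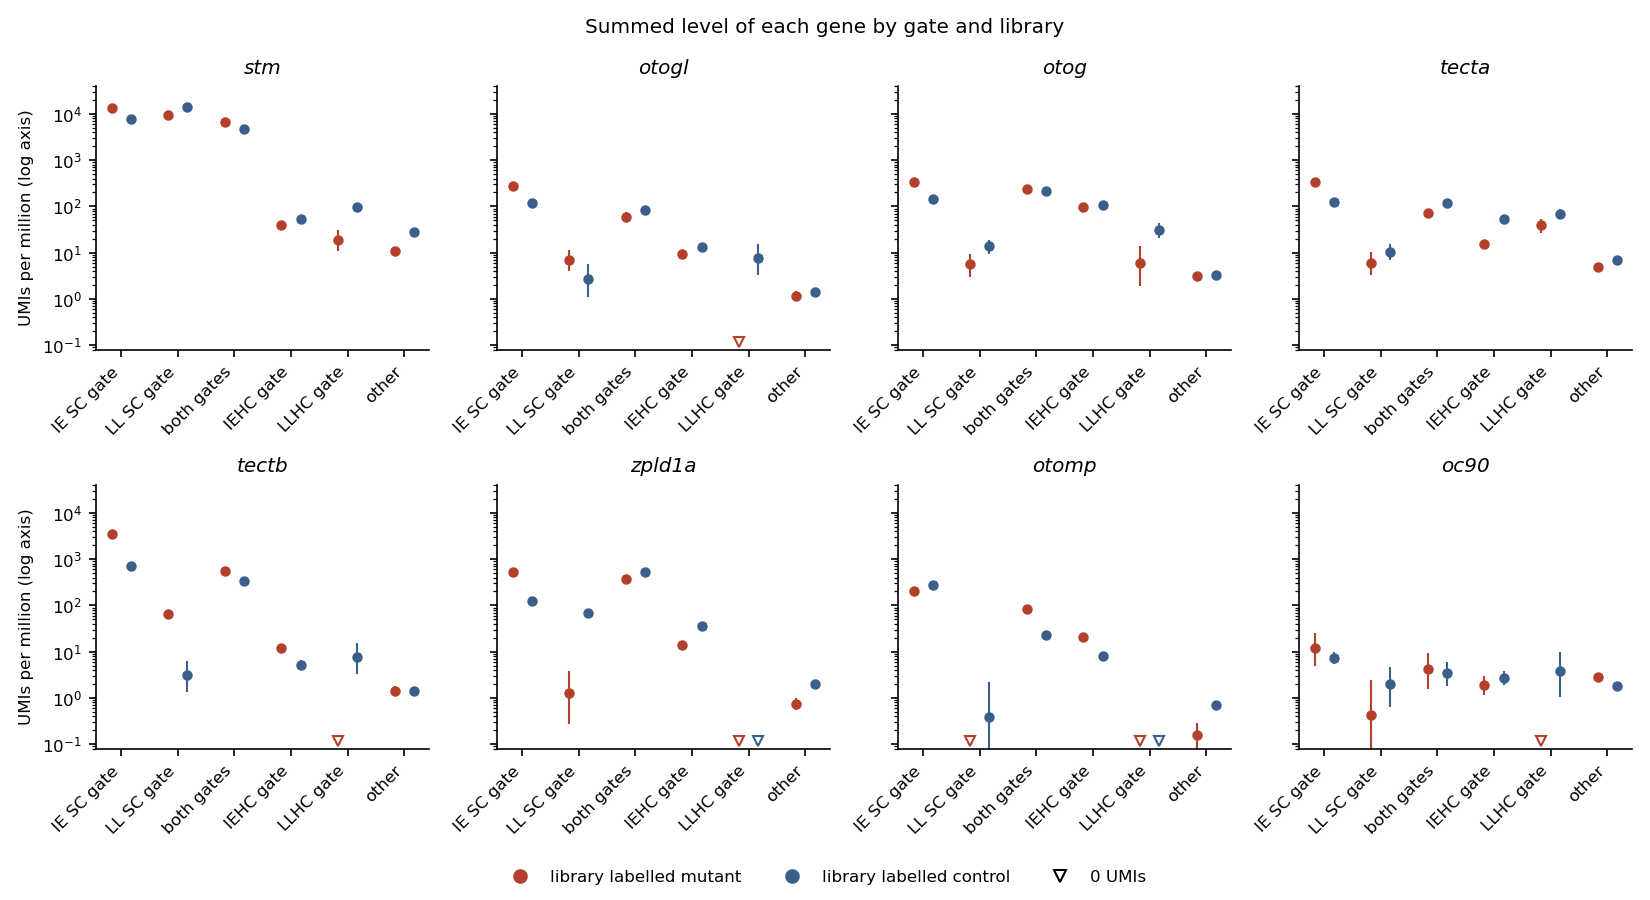
Summed level of each gene (y axis, CPM, log axis) in the IE SC, LL SC, both-gate, IEHC, LLHC and other barcodes, with the library labelled mutant (red) left of the library labelled control (blue). Points carry 95% Poisson intervals and open triangles stand for 0 UMIs. *tectb* reaches 3542 and 701 CPM in IE SCs and is below 1.5 CPM in the other barcodes.

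Against the background, 7 of the 8 genes exceeded 10 times the level of the other barcodes in the IE SCs of each library, against 1.54% of all features in the library labelled mutant and 0.943% in the library labelled control. *stm*, 1 of the 7, was fixed by the gate. *tectb* lay 2450 times above the other barcodes in the library labelled mutant and 494 times above them in the library labelled control. *oc90* was the exception, at 4.30 and 4.03 times. With the RPE and hepatocyte marker barcodes left out it was again 7 of 8 in each library, against 1.7% and 0.939% of all features, with *oc90* at 4.64 and 6.22 times. A list of 12 genes of the gate was ranked by the lower of the libraries' ratios over the other barcodes. *tectb* and *otomp* led it, before *si:ch211-133n4.6* and *BX248331.2*, and *stm*, *otogl* and *otog* were also among these first 12. The list does not hold every gene with a high ratio. *zpld1a*, detected in 7 mutant and 22 control barcodes of the gate, is not in it. Its ratios were 695 (mutant) and 62.8 (control), where the lower ratio of *otog* was 43.5. In the LL SC gate *stm* was the only one of the 8 genes among the first 12, and its rank in both SC gates follows from the gate rule. The next genes in the LL SC gate were *si:ch211-229d2.5*, *si:dkeyp-110c7.4* and *cbln20*.

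Compared directly, 6 of the 7 genes with enough UMIs (at least 20 over the pair of gates) were 2-fold or more higher in IE than in LL SCs of the library labelled mutant, where 31.2% of all features passed in either direction. In the library labelled control it was 6 of 8, where 37.6% of all features passed. *otog* was higher by 5.91 on the log2 scale (interval 5.10 to 6.85) in the library labelled mutant and by 3.38 (2.89 to 3.91) in the library labelled control. *otogl* was higher by 5.34 (4.59 to 6.18) and 5.43 (4.38 to 6.75), *tecta* by 5.82 (5.04 to 6.72) and 3.54 (2.98 to 4.15), and *tectb* by 5.78 (5.54 to 6.03) and 7.81 (6.83 to 9.02). *otomp*, with 0 UMIs in mutant LL SCs, was at least 156-fold higher in mutant IE SCs, taking 3 UMIs as the floor, and in the library labelled control it was higher by 9.45 (6.97 to 14.76), a ratio that rests on 1622 against 1 UMI. *oc90* passed with 44 against 5 UMIs in the library labelled control and had too few UMIs in the library labelled mutant. *zpld1a* passed in the library labelled mutant (8.64, 7.07 to 10.92) and did not pass in the library labelled control (0.88, 0.64 to 1.12). In control LL SCs 98 of its 177 UMIs lay in 1 barcode. When the IE gate was stripped of RPE and hepatocyte marker barcodes, 6 of 7 genes passed in the library labelled mutant and 7 of 8 in the library labelled control, where 31.1% and 33.8% of all features did. The added gene was *zpld1a*, at 1.31 (1.07 to 1.56) in the library labelled control.

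The genes were not spread evenly over the IE SC gate. *tectb* was detected in 48 of 71 mutant and 128 of 452 control IE SCs, and *zpld1a* in 7 and 22. A barcode with at least 10 UMIs of a gene is called high for it here, a limit set after seeing the counts. *tectb* was high in 40 of the 71 mutant IE SCs (56.3%) and 80 of the 452 control IE SCs (17.7%), which held 98.0% and 95.7% of its UMIs in the gate. *zpld1a* was high in 6 mutant barcodes (8.45%) and 15 control barcodes (3.32%), which held 97.6% and 98.1% of its UMIs. *otomp* was high in 3 mutant and 29 control barcodes, which held 60.9% and 92.2% of its UMIs. No barcode of the gate was high for any pair of these genes in either library. From the product of the single shares, 3.38 mutant and 2.65 control barcodes would be high for *tectb* and *zpld1a*, and 1.69 and 5.13 for *tectb* and *otomp*. For *zpld1a* and *otomp* the product was only 0.254 and 0.962 barcodes, so 0 is near what the shares give for that pair. In the gate without RPE and hepatocyte marker barcodes the products were 3.43 and 3.30, 1.71 and 7.37, and 0.257 and 1.23 in the same order. No barcode was high for any of the pairs there. Any detection gave another picture in the library labelled control. There 13 of the 22 barcodes with *zpld1a* also held *tectb*, against 6.23 from the product of shares, and 12 of 20 without marker barcodes, against 8.01. In the library labelled mutant it was 0 of 7, against 4.73. Over all kept barcodes, 63 mutant and 109 control barcodes were high for *tectb*, 20 and 55 were high for *zpld1a*, and 0 were high for both, where the product of shares gives 0.151 and 0.345 barcodes. For *otomp*, 7 mutant and 29 control barcodes were high, of which 1 mutant barcode was also high for *tectb*.

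**Figure D3:**
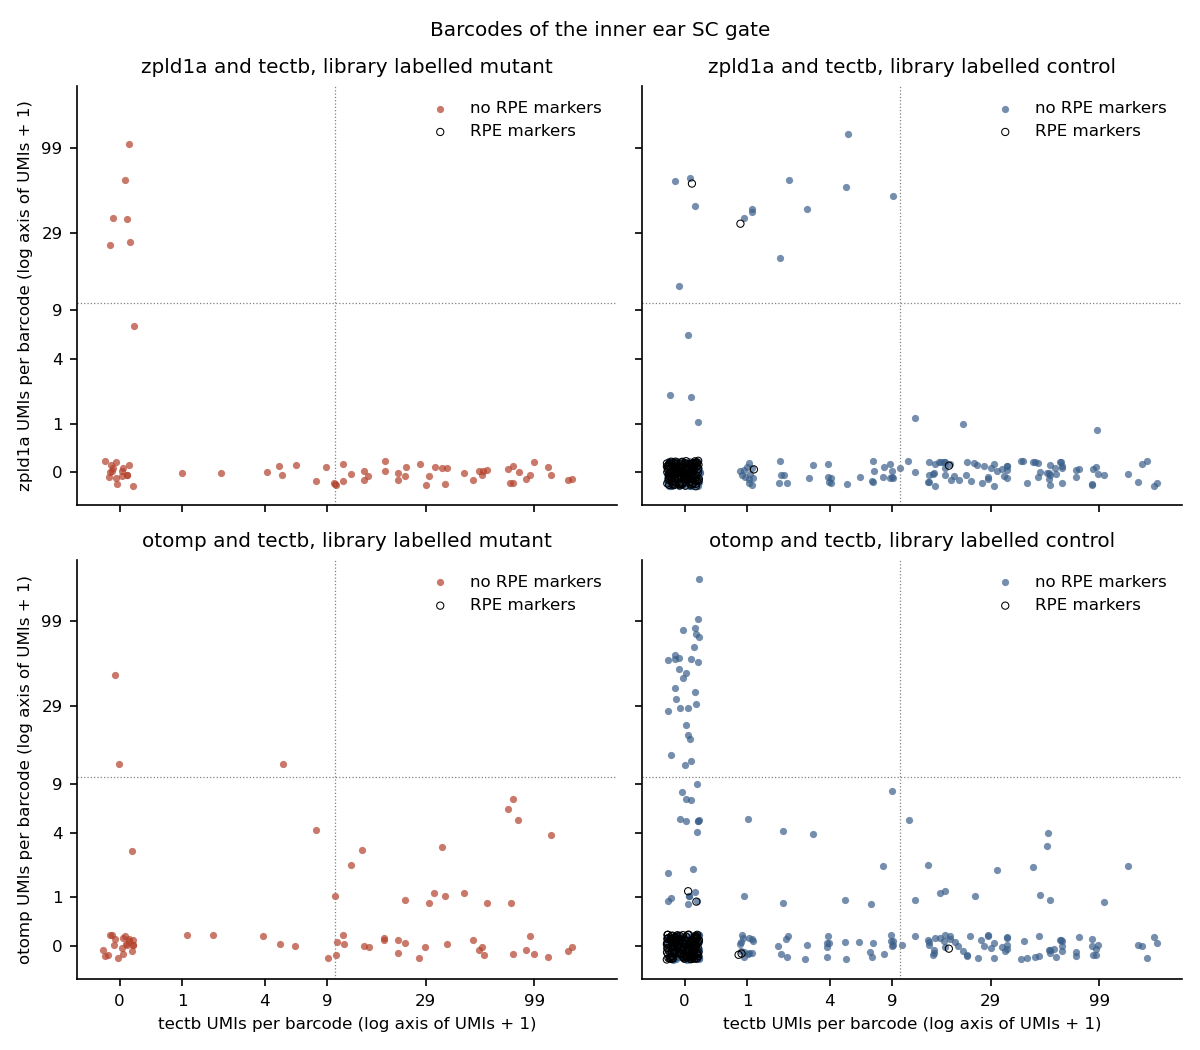
UMIs per barcode of *zpld1a* (upper panels) and *otomp* (lower panels) against *tectb* UMIs in the barcodes of the IE SC gate, library labelled mutant left and control right. Axes are logarithmic in UMIs + 1 with small random offsets, dotted lines mark 10 UMIs, and open circles are RPE marker barcodes. The upper right corner, 10 UMIs or more of both genes, is empty in all 4 panels.

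The other genes differed in level between these sets. In *tectb*-high barcodes *otogl* stood at 423 CPM (354 to 502) in the library labelled mutant and 386 CPM (353 to 422) in the library labelled control, and it was detected in 32 of 40 and 76 of 80 of them. *tecta* stood at 507 and 440 CPM there, again in 80.0% and 92.5% of barcodes. *zpld1a* had 0 UMIs in the 40 mutant and 3 UMIs in the 80 control barcodes. The otolin genes *otol1a* and *otol1b*, which encode collagen-like scaffold proteins of the otolith, were present in this set, with 34 and 34 UMIs in mutant and 109 and 55 UMIs in control barcodes.

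In *zpld1a*-high barcodes *otog* stood at 1024 CPM (744 to 1375) in 6 of 6 mutant barcodes and at 816 CPM (716 to 926) in 14 of 15 control barcodes. *otogl* had 0 UMIs in the mutant and 2 UMIs in the control barcodes of the set. *tecta* had 2 and 7 UMIs. *otol1a* and *otol1b* had 0 UMIs in both libraries, also over the 20 mutant and 55 control *zpld1a*-high barcodes found among all kept barcodes. *tectb* had 0 UMIs in the 6 mutant barcodes and 30 UMIs over 10 of the 15 control barcodes (102 CPM, 69.1 to 146).

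In *otomp*-high barcodes *stm* stood at 47450 CPM in the 3 mutant barcodes and at 14850 CPM in the 29 control barcodes. *tectb* had 5 UMIs in the mutant barcodes of this set, all in 1 barcode, and 0 in the control barcodes. *zpld1a* had 0 in both, and *otol1b* had 18 and 33. The median depth of the sets was 6299 and 13208 UMIs for *tectb*, 7166 and 12803 for *zpld1a*, and 13649 and 26118 for *otomp*, mutant before control, so that a limit in UMIs asked for a higher level in the mutant barcodes. In the library labelled control, 1.25% of the *tectb*-high, 13.3% of the *zpld1a*-high and 0% of the *otomp*-high barcodes carried RPE markers.

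For a comparison at equal depth, each IE SC was thinned to 4000 UMIs, which left 50 mutant and 355 control barcodes. *tectb* was then detected in 66.0% of the mutant (51.2 to 78.8%) and 28.5% of the control barcodes (23.8 to 33.5%), or 67.3% and 44.0% without RPE and hepatocyte marker barcodes. It was found in 24 of the 26 mutant barcodes with *tecta* (92.3%) and in 71 of the 85 control barcodes with *tecta* (83.5%). It was found in 95.7% and 83.0% of the barcodes with *otogl*. *otogl* and *zpld1a* were not found together in thinned barcodes, among 23 and 6 mutant and 88 and 17 control barcodes with each, where the product of shares gives 2.76 and 4.21 barcodes. Without thinning, 0 of 7 mutant barcodes with *zpld1a* held *otogl*, against 3.65 from the product, and 6 of 22 control barcodes did, against 6.08. *tectb* was found in 0 of 6 mutant and 3 of 17 control thinned barcodes with *zpld1a*, against 3.96 and 4.84. *zpld1a* lay beside *otog* in 6 of 6 mutant and 14 of 17 control barcodes. Over pairs in which both genes were in at least 5% of barcodes, the observed share with both divided by the product of the single shares had a median of 1.14 over 15 mutant pairs and 2.18 over 10 control pairs. Without RPE and hepatocyte marker barcodes it was 1.12 and 0.877 over 15 pairs each. The control pairs that count then differ, and over the same 10 control pairs it was 1.44.

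Barcodes that passed both the *stm* and the *myo6b* condition made up 0.805% of kept barcodes in each library and held 52.5% of the mutant and 50.7% of the control *zpld1a* UMIs. *zpld1a* was high in 10 of 67 mutant and 21 of 140 control barcodes and *tectb* in 18 and 25. None was high for both, where the product of shares gives 2.69 and 3.75 barcodes. Their levels were 370 and 521 CPM for *zpld1a*, 559 and 333 CPM for *tectb*, and 239 and 220 CPM for *otog*. These barcodes had a median depth of 19609 and 22622 UMIs. Scrublet doublet scores in the top 8% of their library were given to 37.3% and 32.1% of them, against 25.0% and 39.0% of LLHCs, 11.7% and 16.1% of IEHCs, 11.3% and 12.8% of IE SCs and 7.25% and 6.82% of the other barcodes. Whether they are single cells with SC and HC transcripts or pairs of cells was not tested.

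Among HCs, *otog* stood at 98.7 CPM (92.7 to 105) in mutant and 107 CPM (102 to 113) in control IEHCs, against 3.17 and 3.27 CPM in the other barcodes. *otog* was detected in 44.3% of mutant IEHCs (median depth 12861 UMIs) and 51.7% of control IEHCs (14379), and in 1.87% and 1.98% of the other barcodes (5644 and 7090). After thinning to 4000 UMIs the shares were 25.9% and 28.3% in IEHCs and 0.933% and 0.977% in the other barcodes. Within IEHCs *otog* went with *atoh1a*, the transcription factor gene that drives HC formation. IEHCs with an *atoh1a* UMI held 134 and 149 CPM of *otog*, and those without held 25.9 and 36.9 CPM. At equal depth *otog* was detected in 34.7% (30.5 to 39.2%) and 38.0% (33.7 to 42.6%) of IEHCs with *atoh1a*, against 8.33% (5.16 to 12.6%) and 11.7% (8.22 to 16.1%) of those without. These intervals cover counting error over barcodes of 1 library each. How many other features differed as much over the *atoh1a* split was not counted, so the split is a description. In LLHCs *otog* had 5 UMIs in the library labelled mutant (5.86 CPM) and 32 in the library labelled control (30.8 CPM, 15 of them in 1 barcode).

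*tecta* was the 1 gene of the set with a signal in LLHCs of both libraries. It was detected in 40.0% of the 60 mutant and 40.3% of the 77 control LLHCs, at 38.7 CPM (26.6 to 54.3) and 69.2 CPM (54.2 to 87.2), against 4.92 and 7.02 CPM in the other barcodes. In IEHCs it stood at 15.5 CPM in the library labelled mutant and 54.8 CPM in the library labelled control. It was detected there in 14.9% and 48.4% of barcodes, and in 5.45% and 18.6% at 4000 UMIs.

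*otomp* was found in IEHCs and not in LLHCs. It stood at 20.6 CPM in 16.9% of mutant IEHCs and at 8.11 CPM in 9.27% of control IEHCs, and had 0 UMIs in the 60 mutant and the 77 control LLHCs, which allows up to 3.52 and 2.88 CPM (3 UMIs). *zpld1a* also had 0 UMIs in the LLHCs of both libraries, and in IEHCs its 138 mutant and 447 control UMIs lay in 37 and 48 barcodes. *otogl*, *tectb* and *oc90* stood below 14 CPM in every HC gate.

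**Figure D4:**
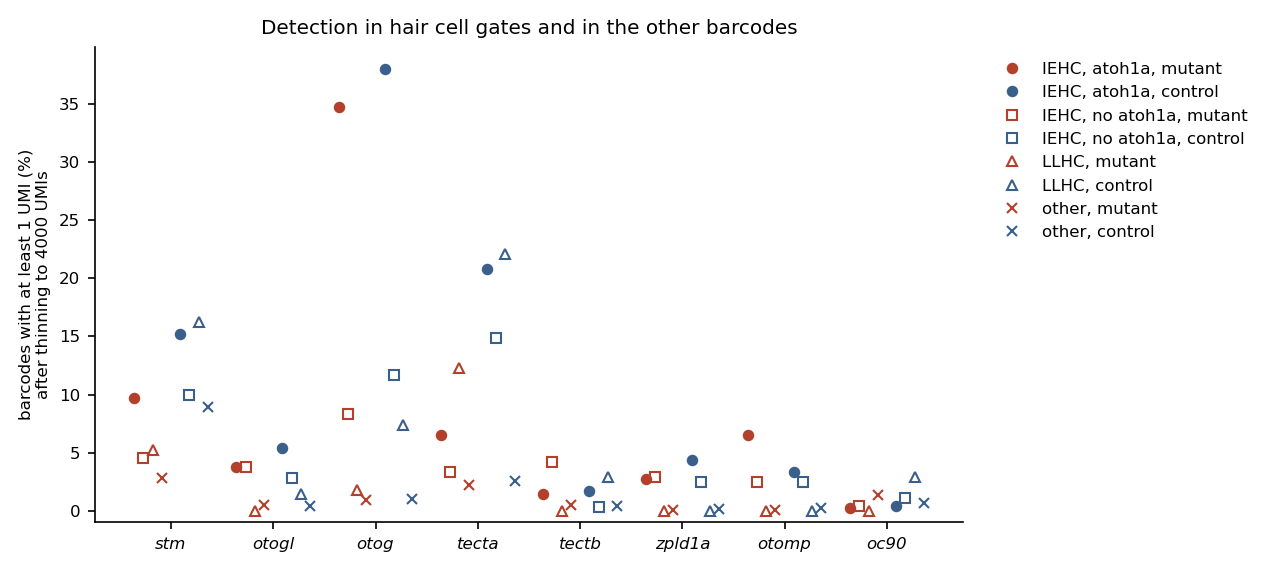
Share of barcodes with at least 1 UMI of each gene after thinning to 4000 UMIs (y axis, %) in IEHCs with and without *atoh1a*, LLHCs and the other barcodes, mutant in red and left of control in blue. *otog* reaches 34.7% and 38.0% in IEHCs with *atoh1a*, and *tecta* 12.3% and 22.1% in LLHCs.

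Over the other barcodes, 7 of the 8 genes in mutant IEHCs and 6 in control IEHCs exceeded 2 times the background level, where 16.1% and 18.4% of all features did. *stm*, 1 of the 7 (3.67 times), was held under the gate limit in IEHCs and in the background. It was also left out of the shares of all features. *otog* lay 31.2 and 32.8 times above the background, and *otomp* 133 and 11.6 times, where the mutant background of *otomp* held 9 UMIs. *zpld1a* lay above it by 4.23 and 4.17 on the log2 scale. In LLHCs 1 gene passed in the library labelled mutant, *tecta* at 7.86 times, and 6 in the library labelled control, where 14.9% and 22.5% of all features passed. The 6 control genes included *oc90*, with 4 UMIs and an interval that spanned equality. *otogl* and *tectb* had 8 UMIs each, 5 of them in 1 barcode, and *otog* had 15 of its 32 UMIs in 1 barcode. *stm*, also among the 6, was held under the gate limit in both groups.

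IEHCs were then set against LLHCs. In the library labelled mutant 6 of 7 genes were higher and 1 lower in IEHCs past 2-fold, where 18.6% of all features passed, and in the library labelled control 3 of 8 were higher, where 15.3% passed. *stm*, 1 of the 6 (393 against 16 UMIs), was held under the gate limit in both HC gates, so its value is a description. *otogl* and *tectb*, with 95 and 118 UMIs in mutant IEHCs, had 0 UMIs in mutant LLHCs and entered there at 3. *otog* was higher in IEHCs by 4.07 and 1.80 on the log2 scale, with intervals that left out 2-fold in both libraries. *tecta* was lower in mutant IEHCs than in mutant LLHCs (-1.32, -1.87 to -0.73) and gave -0.34 (-0.69 to 0.03) in the library labelled control. For *zpld1a* and *otomp*, with 0 UMIs in LLHCs, IEHCs were at least 3.95-fold and 5.87-fold higher in the library labelled mutant and at least 12.6-fold and 2.81-fold higher in the library labelled control, taking 3 UMIs as the floor.

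The libraries labelled mutant and control were last compared gate by gate. In IE SCs 5 of the 8 genes were higher in the library labelled mutant past 2-fold and 0 were lower, where 20.9% of all features passed in either direction. Their median log2 ratio was 1.25, against -0.04 over all 14228 features tested. *tectb* was higher by 2.34 (2.26 to 2.41), *zpld1a* by 2.02 (1.82 to 2.22), *tecta* by 1.48 (1.24 to 1.71), *otogl* by 1.25 and *otog* by 1.24. These 5 calls were also made without the barcode with most UMIs of each gene in each library. *stm* gave 0.81, *oc90* 0.73 (-0.67 to 1.89) and *otomp* -0.44 (-0.73 to -0.17). Without RPE and hepatocyte marker barcodes 2 of 8 passed, where 18.6% of all features did, *tectb* (1.84, 1.76 to 1.91) and *zpld1a* (1.69, 1.49 to 1.89). The values of *tecta*, *otog* and *otogl* were then 0.99, 0.78 and 0.75, and that of *otomp* was -0.96.

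The libraries were also compared within the sets of high barcodes. A limit in UMIs asks for a higher level at the lower mutant depth, so a set's own gene cannot be compared between the libraries. Genes that go with it can be selected along with it, so their ratios are a description. Over single thinned IE SCs the Pearson correlation with *tectb* was 0.476 (mutant) and 0.684 (control) for *otogl*, and 0.423 and 0.616 for *tecta*. In the *tectb*-high, *zpld1a*-high and *otomp*-high sets the median log2 ratio of all features tested was -0.16, -0.04 and 0.18. Of these features, 21.3%, 16.8% and 10.3% passed in either direction. Within the *tectb*-high barcodes, which made up 56.3% of the mutant and 17.7% of the control gate, *otogl* gave a log2 ratio of 0.13 (-0.16 to 0.41), *tecta* 0.20 (-0.06 to 0.46), *otog* 0.63 (0.32 to 0.94) and *stm* 0.66 (0.61 to 0.71). *otomp* gave 2.51 (1.76 to 3.27) there, from 38 mutant and 27 control UMIs, and *tectb* itself 1.01. In *zpld1a*-high barcodes *otog* gave 0.33 (-0.17 to 0.80) and *zpld1a* itself 1.40. In *otomp*-high barcodes, of which there were 3 mutant and 29 control, *otogl* gave 2.41 (1.34 to 3.38), *tecta* 2.45 (0.84 to 3.83), *stm* 1.68 (1.61 to 1.74) and *otog* 0.96 (-0.22 to 1.96). Of the mutant UMIs of this set, 1 barcode held all 12 of *otogl*, all 9 of *otog*, 4 of 6 of *tecta* and 1317 of 2342 of *stm*. These ratios thus rest largely on 1 mutant barcode, which the counting intervals do not show. The make-up of the gate and the level per cell cannot be told apart in its summed levels.

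**Figure D5:**
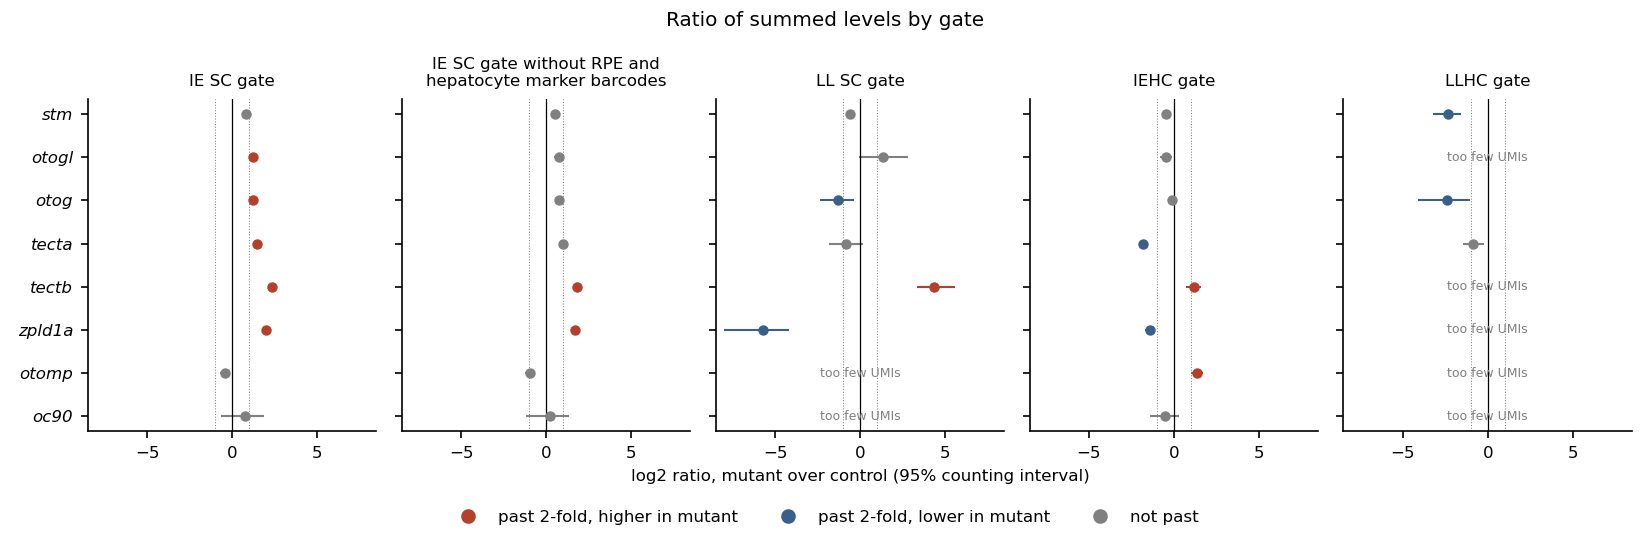
Log2 ratio of summed levels, mutant over control (x axis), for each gene in the IE SC gate, the same gate without RPE and hepatocyte marker barcodes, and the LL SC, IEHC and LLHC gates. Bars are 95% counting intervals, dotted lines mark 2-fold, and red and blue points are past it. *tectb* is at 2.34 in the IE SC gate and 1.84 without the marker barcodes, and *tecta* is at -1.82 in IEHCs.

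In LL SCs 6 genes had enough UMIs, of which 1 was higher and 2 were lower in the library labelled mutant, where 28.2% of all features passed. These calls rested on few barcodes. For *tectb*, at 64.3 CPM in the library labelled mutant and 3.13 CPM in the library labelled control (log2 ratio 4.36), 147 of the 149 mutant UMIs lay in 1 barcode, and without the top barcode of each library 2 mutant and 3 control UMIs remained. *zpld1a* (-5.74, -8.03 to -4.17) was found in 2 mutant and 5 control barcodes and gave -6.16 without the top barcodes. *otog* (-1.29, -2.33 to -0.33) had 13 mutant and 35 control UMIs and gave -2.61 without them. The companions in the few positive barcodes were those seen in the IE SC gate. The mutant barcode with 147 *tectb* UMIs also held 9 *otog* and 6 *otogl* UMIs, and the 2 control barcodes with 173 of the 177 *zpld1a* UMIs held 14 *otog* and 0 *otogl* UMIs.

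In IEHCs 2 genes were higher and 2 lower in the library labelled mutant, where 26.4% of all features passed and the median of all features was -0.17. *tecta* fell by 1.82 on the log2 scale (-2.08 to -1.57), with 154 UMIs in 108 mutant barcodes against 675 UMIs in 371 control barcodes. *zpld1a* was lower (-1.38, -1.67 to -1.11), *otomp* was higher (1.35, 0.99 to 1.71), and *tectb* was higher (1.17, 0.72 to 1.63) with 118 mutant and 65 control UMIs. *tectb* gave 0.96 without the top barcode of each library and was then not past 2-fold. *otog*, with 981 and 1321 UMIs, gave -0.12 (-0.24 to 0.00). *stm* and *otogl* gave -0.45 and -0.46.

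In LLHCs 3 genes had enough UMIs and 2 were lower in the library labelled mutant, where 25.7% of all features passed. *stm*, 1 of the 2, had 16 mutant and 99 control UMIs (-2.34, -3.20 to -1.57), beside a background *stm* of 10.8 and 28.5 CPM in the other barcodes. It was held under the gate limit in both libraries, so its value here is a description. *otog* had 5 and 32 (-2.39, -4.11 to -1.02) and, without the top barcodes, 2 and 17, too few for a call. *tecta* gave -0.84 (-1.48 to -0.23).

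The other otolith and otic membrane genes were looked at as a list. Of 13 genes, 11 had a row. In IE SCs 5 were higher in the library labelled mutant, where 20.9% of all features passed in either direction (*otol1a* 1.47, *otol1b* 1.78, *hsp90b1* 1.34, *slc26a4* 1.34 and *col9a1a* 1.09 on the log2 scale) and *matn4* was lower (-2.21). Leaving out RPE and hepatocyte marker barcodes, 1 was higher, *otol1b* (1.27, 0.80 to 1.71), and 1 lower, *matn4* (-2.66, -3.48 to -1.96), where 18.6% passed. *sparc*, which encodes another otolith matrix protein, gave -0.09, at 2564 CPM in the library labelled mutant and 2722 CPM in the library labelled control. Against LL SCs, IE SCs were higher for 7 of 9 tested genes in the library labelled mutant and for 9 of 11 in the library labelled control, where 31.2% and 37.6% of all features passed. The otolin genes were among them, with *otol1b* at 0 UMIs in the LL SCs of both libraries. *hsp90b1*, which encodes a chaperone of the endoplasmic reticulum, was lower in IE than in LL SCs in both (-1.27 and -1.99). In IEHCs 0 of the 9 tested genes were higher and 3 were lower in the library labelled mutant, *sparc* (-1.31), *matn4* (-2.05) and *col9a1a* (-1.24), where 26.4% of all features passed.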

How the data were processed

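The values are raw UMI counts, which the authors deposited as 1 gene by barcode matrix for each of 2 libraries of sorted mGFP+ zebrafish cells, without normalization. Per the file headers they were made with Cell Ranger 9.0.1 (library labelled mutant) and 7.1.0 (library labelled control), so version and genotype cannot be told apart. The submitters' processing notes also name Seurat and the build GRCz11. The libraries shared 49 barcode sequences. The 8 genes, the gates and the gene lists were chosen with earlier results of these data known. Features were joined by Ensembl identifier, UMIs were summed per gate with Python 3.11.15 (scipy 1.17.1), and a gene was called where its levels differed 2-fold or more, its interval left out equality and it had at least 20 UMIs over both groups. A gene with 0 UMIs entered at 3. The text names the 8 genes, the gate genes, the other otolith genes and the genes with the most similar profiles. Scrublet scores (scanpy 1.11.5) served to describe possible doublets, none of which were removed. The functions were tested on simulated data. Alternatives covered filters, gate limits, depth, doublets and single barcodes.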

Additional observations from a re-analysis of the deposited data

Results flagged for a closer look

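Over all 6 pairs of gates, 11 cases were found in which a gene stood on opposite sides of equality between the libraries, with both counting intervals away from 0. How many other features did so was not counted, so the number of cases is a description. Each case had the IE SC gate in the pair. The differences themselves were not tested, since each rests on 1 library per genotype. Between IE SCs and LL SCs, the log2 ratio of mutant over control differed by 1.40 for *stm* (0.81 and -0.58), by 2.53 for *otog* (1.24 and -1.29) and by 7.76 for *zpld1a* (2.02 and -5.74), of which the LL values of *zpld1a* rest on 2 mutant and 5 control barcodes. Between IE SCs and IEHCs it differed by 1.26 for *stm* (0.81 and -0.45), by 1.71 for *otogl* (1.25 and -0.46), by 3.30 for *tecta* (1.48 and -1.82), by 3.41 for *zpld1a* (2.02 and -1.38) and by -1.79 for *otomp* (-0.44 and 1.35). Between IE SCs and LLHCs it differed by 3.16 for *stm* (0.81 and -2.34), by 3.64 for *otog* (1.24 and -2.39, the LLHC value from 5 mutant and 32 control UMIs) and by 2.32 for *tecta* (1.48 and -0.84). Without RPE and hepatocyte marker barcodes the IE SC values were 0.54 for *stm*, 0.78 for *otog*, 1.69 for *zpld1a*, 0.75 for *otogl*, 0.99 for *tecta* and -0.96 for *otomp*, with the same signs. *stm* set the SC gates and was held under its limit in the HC gates, so its values in them follow in part from the gates.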

How the results depend on the processing

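No paired analysis was possible because each genotype had 1 library. Of the gate-level counts and joint ratios under other settings, 143 stayed within 1.5 times their value and 18 did not, and the causes were not tested. The share of all features that passed was counted only in the main setting and without RPE and hepatocyte marker barcodes. The counts under the other settings are thus a description. Thinning to 4000 UMIs left 2 of 4 calls between the libraries in IEHCs and 1 of 2 in LLHCs. Between mutant IEHCs and LLHCs it left 2 of 7 calls. For IEHCs over LLHCs, *otogl* was then at -0.23 in the library labelled mutant and *otomp* at -0.43 in the library labelled control. Both genes had 0 UMIs in the LLHCs of that library and entered there at 3, so these values are lower bounds. They do not show lower levels in IEHCs. With *stm* at 500 CPM, mutant IEHCs against LLHCs gave 4 calls, with *stm* at -0.01, mutant LLHCs had 3 genes over 2 times the background in place of 1, and *tectb* between the libraries in IEHCs was at -0.22. With *stm* at 2000 CPM, *tectb* was at -0.32, mutant LLHCs had 2 genes over background, *stm* in mutant IEHCs against LLHCs was at -0.77, control IEHCs against LLHCs gave 5 calls in place of 3, and the control joint ratio was 1.11. With at least 5 *myo6b* UMIs that ratio was 1.37 and LLHCs gave 1 call between the libraries. With both-gate barcodes kept among HCs, LLHCs gave 4 calls, control IEHCs against LLHCs 6, and mutant LLHCs 2 genes over background, which was also 2 at 1000 genes and 10% mitochondrial UMIs. At a minimum of 100 UMIs, LLHCs gave 1 call, as they did without the top barcode of each gene, a setting chosen after seeing the data. Without RPE and hepatocyte marker barcodes, also chosen afterwards, IE SCs gave 2 calls in place of 5 and the control joint ratio was 0.88 over 15 pairs in place of 10, or 1.44 over the same 10. Scrublet's automatic threshold marked almost no barcode and was not used, and the top 8% of scores were removed in its place, a change made after seeing the data. The 60 and 77 LLHCs and the 71 mutant IE SCs limit what depth can show.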

Other observations

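The genes with profiles most like each of the 8 were looked up over 24 gates and marker classes of at least 50 barcodes, among 21943 genes. The points share libraries and depth, so the Pearson correlations of log2(CPM + 1) are a description. *otogl* and *tectb* were each other's nearest gene (0.935), followed for *tectb* by *bricd5* (0.934). *otomp* was nearest to *otol1b* (0.934). *zpld1a* and *otog* were both nearest to *cryabb* (0.945 and 0.907), a small heat shock protein gene. *stm* was nearest to the olfactory receptor family genes *or111-2* (0.941) and *or111-11* (0.929). Since *stm* chose the SC gates among these points, its profile follows in part from the gates. Over single IE SCs thinned to 4000 UMIs, *zpld1a* went with *znf536* (0.801 in the library labelled mutant, 0.521 in the library labelled control) and the chemokine gene *cxcl14* (0.748 and 0.612), with 6 mutant and 17 control barcodes holding *zpld1a*. *tectb* went with *igfbp3* (0.604 and 0.661) and *si:ch211-243g18.2* (0.596 and 0.681).

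Of the *oc90* UMIs outside the gates, barcodes of no marker class held 103 of 166 in the library labelled mutant (62.0%) and 139 of 264 in the library labelled control (52.7%), and those with neuron or neural progenitor markers 50 (30.1%) and 74 (28.0%). No marker class took 4535 of the 6845 other mutant barcodes and 6843 of the 15312 other control barcodes. The neuron class took 1006 and 406 of them, and the neural progenitor class 155 and 339. Barcodes with neural progenitor markers held 3.97 CPM in the library labelled mutant (5 UMIs in 1 barcode) and 15.9 CPM in the library labelled control (61 UMIs, in 6.49% of 339 barcodes), and those with neuron markers 7.24 CPM (45 UMIs) and 4.86 CPM (13 UMIs). Erythrocyte marker barcodes of the library labelled control held 0.0788 CPM (3 UMIs in 5287 barcodes).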
